A study of Mus musculus with 6 samples.

Results

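Several CC chemokine genes of the mouse lie in 2 clusters on chromosome 11. The features described here are the long non-coding RNA (lncRNA) rows of a deposited table that are listed there. They were taken by listed position alone, from 81.9 to 82.2 Mb (the side of Ccl2, Ccl7 and Ccl12) and from 83.4 to 83.68 Mb (the side of Ccl5, Ccl9, Ccl3 and Ccl4). Of 24817 features in the table, 24 start in these windows and 21 of them held at least 10 reads over all libraries, 1 in the first window and 20 in the second. Its counts come from RNA sequencing of 6 libraries of the macrophage line RAW264.7, which was derived from a mouse. All cells received lipopolysaccharide (LPS), a bacterial cell wall component, for 24 h. By title and treatment label, all were then moved to medium that had been in contact with bone cement of polymethyl methacrylate (PMMA). In the 3 LPS_ES_PMMA libraries the cement carried ES, which stands for enoxaparin sodium in the series title and is an anticoagulant of the heparin class. In the 3 LPS_PMMA libraries the titles and treatment labels name plain cement, whereas their descriptions and table columns name LPS alone. If the descriptions hold, enoxaparin and cement extract cannot be told apart here. Below, "with enoxaparin" therefore means only LPS_ES_PMMA against LPS_PMMA. RAW264.7 is 1 transformed line, there was no group without LPS, and separate cultures are not stated, so a p-value here weighs a difference against a spread that may be technical only.

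CC chemokines are small secreted proteins named for a pair of adjacent cysteines near their amino terminus, and they draw leukocytes to a tissue through G-protein-coupled receptors. Ccl2 acts on monocytes through the receptor CCR2, and Ccl3 and Ccl4 are inflammatory chemokines that macrophages release. In macrophages LPS is sensed by TLR4, and NF-kB then switches on several of these genes together with other inflammatory genes. The question put to these features was whether they differ between LPS_ES_PMMA and LPS_PMMA, by title extracts of cement with and without enoxaparin.

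Of the 21 members, 4 are assembled features, MSTRG.9414.1, MSTRG.9463.1, MSTRG.9473.1 and MSTRG.9487.1, which the authors built from reads and listed as lncRNAs. Their total intron length, the span minus the spliced length, was 1070, 2712, 1440 and 1745 bases in that order. These are, to the base, the intron totals of the annotated protein-coding transcripts of Ccl2, Ccl9, Ccl4 and Wfdc17, the last a whey acidic protein family gene beside the chemokines. Each of these totals is held by 2 to 6 coding genes of the whole GENCODE M21 annotation, the matched gene included. Among all 2305 assembled transcripts, 384 (16.7%) share their intron total with a coding transcript within 1 Mb. The spliced lengths were 14 bases shorter than Ccl2 (799 against 813), 78 shorter than Ccl4 (582 against 660), 97 shorter than Wfdc17 (436 against 533) and 1788 shorter than Ccl9 (1218 against 3006). Whether the reads of these features are those of the messenger RNAs was not tested.

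As listed, none of these 4 features overlaps an exon of a coding gene, and each sits about 109.2 kb below the gene it matches, MSTRG.9463.1 at its end coordinate only. MSTRG.9414.1 is listed at 81926410 to 81928278, which the table calls an intron of Asic2, an acid-sensing ion channel gene, and Ccl2 lies at 82035571 to 82037453 in build mm10. Its start and end are offset from Ccl2 by -109161 and -109175 bases. MSTRG.9473.1 (83553423 to 83555444) has offsets of -109161 and -109239 from Ccl4 (83662584 to 83664683), and MSTRG.9487.1 (83594902 to 83597082) has -109089 and -109186 from Wfdc17 (83703991 to 83706268). MSTRG.9463.1 (83465408 to 83469337) has -107511 and -109299 from Ccl9 (83572919 to 83578636). The submitters' processing notes name mm10, but 2 assembled transcripts of the table lie on MU069435.1, a scaffold that the mm10 annotation does not hold. Whether assembled and annotated features are listed on 1 assembly is not stated in the sources used here. The gene names below are those of the matching transcripts, and names such as Ccl2-like mean a shared intron total only.

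The start of the coding sequence of Ccl2 and Ccl9 is printed to show the motif that names the family, in genes whose intron total a listed lncRNA shares. They come from the GENCODE M21 transcripts (GRCm38, chromosome 11, plus strand for Ccl2, minus strand for Ccl9), show the first 240 bases from the start codon, 5′ to 3′, and have the adjacent cysteine codons in capitals. That pair begins at codon 34 in Ccl2 and at codon 57 in Ccl9.
Ccl2: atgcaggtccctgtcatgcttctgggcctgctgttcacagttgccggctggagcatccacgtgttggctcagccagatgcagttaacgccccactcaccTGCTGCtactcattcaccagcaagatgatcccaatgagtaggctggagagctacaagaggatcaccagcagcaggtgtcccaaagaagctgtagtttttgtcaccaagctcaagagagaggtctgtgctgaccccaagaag
Ccl9: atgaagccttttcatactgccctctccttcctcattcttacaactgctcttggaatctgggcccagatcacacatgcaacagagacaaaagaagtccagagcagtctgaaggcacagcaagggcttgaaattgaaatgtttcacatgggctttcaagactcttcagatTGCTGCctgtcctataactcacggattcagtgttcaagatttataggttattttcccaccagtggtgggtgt

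MSTRG.9414.1, the feature with the intron total of Ccl2, was the only member of either window to pass the test, and it fell with enoxaparin. It held 53, 63 and 42 reads in LPS_PMMA 1, 2 and 3 and 2, 3 and 7 reads in LPS_ES_PMMA 1, 2 and 3. On the scale of TMM-scaled counts (CPM, relative to library size), these are 26.1, 24.8 and 15.2 against 0.486, 1.52 and 2.36. Every LPS_PMMA library lay above every LPS_ES_PMMA library, and the lowest of the former was several times the highest of the latter. The group means were 22.0 ± 5.96 CPM (SD, n = 3) and 1.46 ± 0.938 CPM (SD, n = 3), a level 15.1-fold lower with enoxaparin. The quasi-likelihood test of edgeR, adjusted by Benjamini-Hochberg over 8873 features, gave a log2 fold change of -3.95 with an SE of 0.52 and an adjusted p of 0.0118. Of the 10 members with enough reads to be tested, 1 was called, where 4.76% of all tested features were called, 2.58% as lower and 2.18% as higher in LPS_ES_PMMA. Among assembled features 5.02% were called lower and 2.2% higher, and among annotated ones 2.03% and 2.17%. Of the 6 fits that each left out 1 library, the call was lost in 2, without LPS_ES_PMMA 2 (edgeR adjusted p of 0.0516) and without LPS_PMMA 2 (edgeR adjusted p of 0.0543), while the log2 fold change stayed between -4.61 and -2.87 under the alternatives tried. The authors' deposited table gives MSTRG.9414.1 a log2 fold change of -3.53 and a q-value of 2.1e-05.

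The other 3 assembled features had lower means with enoxaparin and did not pass. MSTRG.9473.1, with the intron total of Ccl4, was the most abundant member. It measured 115, 94.8 and 58.5 CPM in LPS_PMMA and 36.9, 38.5 and 52.5 CPM in LPS_ES_PMMA. In TMM-scaled CPM its groups did not overlap, but LPS_PMMA 3 and LPS_ES_PMMA 3 were close. The difference was -1.07 log2 units with an SE of 0.32, at an edgeR adjusted p of 0.109. MSTRG.9487.1, with the intron total of Wfdc17, held 23, 28 and 13 reads in LPS_PMMA and 6, 8 and 0 in LPS_ES_PMMA. In CPM its groups were also separate, at 9.01 ± 3.74 (SD, n = 3) against 1.84 ± 2.05 (SD, n = 3), with LPS_PMMA 3 (4.69) just above LPS_ES_PMMA 2 (4.05), and it had a difference of -2.41 log2 units, an SE of 0.84 and an edgeR adjusted p of 0.148.

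MSTRG.9463.1, with the intron total of Ccl9, a chemokine made by mouse myeloid cells, showed the smallest difference of the 4. It measured 70.8, 48.01 and 27.8 CPM in LPS_PMMA and 30.1, 18.2 and 41.4 CPM in LPS_ES_PMMA. The groups overlapped, with LPS_PMMA 3 below 2 of the LPS_ES_PMMA libraries (-0.70 log2 units with an SE of 0.43, edgeR adjusted p of 0.383). With column totals in place of TMM factors its log2 fold change was 0.11, whereas that of the other 3 assembled members stayed below 0.

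Ratios within a library need no scaling, and that of the Ccl2-like to the Ccl4-like feature was lower in every LPS_ES_PMMA library. Reads of MSTRG.9414.1 per read of MSTRG.9473.1 were 0.226, 0.261 and 0.259 in LPS_PMMA and 0.0132, 0.0395 and 0.0449 in LPS_ES_PMMA. These ratios did not overlap between the groups, and within LPS_PMMA they were nearly equal although its libraries differed in depth. The ratio of MSTRG.9463.1 to MSTRG.9473.1 was 0.615, 0.506 and 0.475 in LPS_PMMA and 0.816, 0.474 and 0.788 in LPS_ES_PMMA, which overlap. A ratio shows only that members changed unequally, and the difference between members was not tested.

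Summed, the 4 assembled features measured 223, 179 and 106 CPM in LPS_PMMA and 69.0, 62.3 and 96.3 CPM in LPS_ES_PMMA. In TMM-scaled CPM the groups did not overlap, with means 2.23-fold apart. Scaled by column totals, the sums were 123, 140 and 102 CPM in LPS_PMMA and 87.1, 109 and 93.1 CPM in LPS_ES_PMMA. On that scale the groups overlapped, because LPS_ES_PMMA 2 lay above LPS_PMMA 3. In 1 fit over all 17649 features of at least 10 reads, the 4 had a median log2 fold change of -1.73, where the median of all 2290 assembled transcripts was -0.44 and 33.2% of them were above 0. Most assembled transcripts of the table thus had the same sign as these 4.

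**Figure D1:**
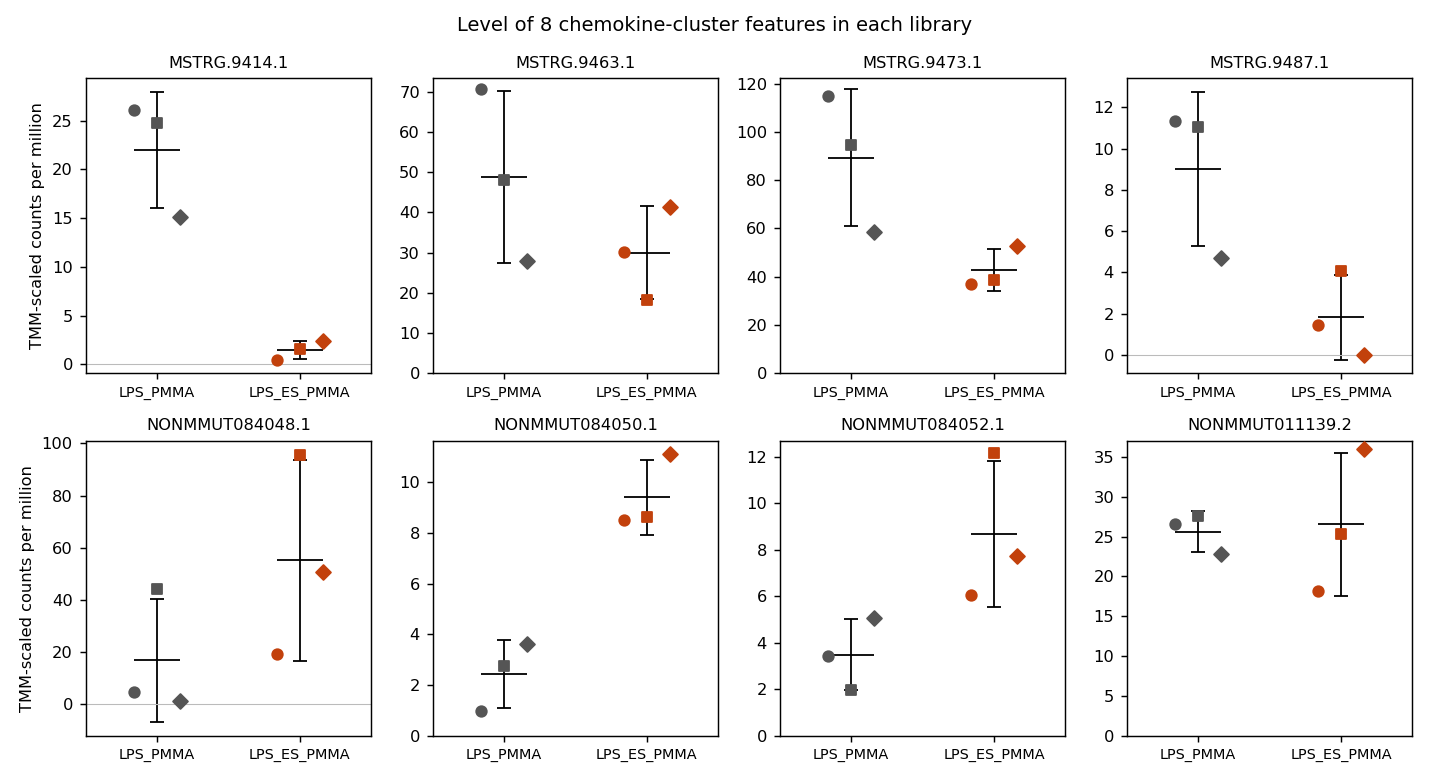
Level of 8 features in each library, in TMM-scaled CPM on linear axes that differ between panels; circles, squares and diamonds are libraries 1, 2 and 3, horizontal bars are group means and error bars are SD (n = 3). MSTRG.9414.1 lies between 15.2 and 26.1 in LPS_PMMA and at most at 2.36 in LPS_ES_PMMA, while NONMMUT011139.2 overlaps between the groups.

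The 17 annotated members come from the NONCODE catalogue and are listed on mm10 positions, mostly as intergenic rows between Ccl5 and Ccl9. Because the assembly their reads were counted on is open to the same doubt, their positions were also read 109.2 kb further on. MSTRG.9414.1, MSTRG.9473.1 and MSTRG.9487.1 are among the few assembled transcripts that set this offset. On chromosome 11 from 80 to 90 Mb, 60 of 217 annotated features (27.6%) overlap a coding exon as listed and 96 (44.2%) do so when moved by that offset. Of the 17 annotated members, 4 overlap a coding exon as listed and 8 when moved. As listed, NONMMUT011139.2 lies over Ccl4 and NONMMUT084061.1 and NONMMUT084062.1 over Ccl3. When moved, those 3 fall in Heatr6, and NONMMUT084045.1, NONMMUT084047.1, NONMMUT084048.1 and NONMMUT084049.1 fall on Ccl3. Which placement the counts follow was not tested member by member, so both are given.

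A stretch of 7 neighbouring annotated features, NONMMUT084048.1 to NONMMUT084054.1 (83538900 to 83552118 as listed), had higher means in LPS_ES_PMMA for each of the 7, and none passed. The stretch was chosen after its values were seen, so its common direction is a description. Moved by the offset, its first 2 features lie on Ccl3 and the other 5 fall between Ccl3 and Ccl4. Their log2 values ran from 1.24 to 1.99 with a median of 1.59 in the fit over features of at least 10 reads, where the median of all features was 0.09 and that of all annotated features 0.15.

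The 5 features from NONMMUT084050.1 to NONMMUT084054.1 had few reads, 25 to 104 each in all. Summed, they held 84, 64 and 87 reads in LPS_ES_PMMA against 14, 21 and 32 in LPS_PMMA, or 20.4, 32.4 and 29.3 CPM against 6.88, 8.26 and 11.6 CPM. The sums of the groups did not overlap, and their means were 3.08-fold apart. Summed over all 7 features of the stretch, the libraries measured 53.4, 131 and 82.2 CPM in LPS_ES_PMMA. In LPS_PMMA the same sums were 13.8, 55.1 and 15.2 CPM, so the groups overlapped. Of the 5, all but NONMMUT084054.1 kept the groups apart on their own in TMM-scaled CPM, in a stretch chosen after its values were seen. Of all features of at least 10 reads, 13.3% were apart with LPS_ES_PMMA higher. NONMMUT084050.1 (83541881 to 83543395) came closest to the threshold, with 35, 17 and 33 reads in LPS_ES_PMMA against 2, 7 and 10 in LPS_PMMA. It measured 9.41 ± 1.48 CPM (SD, n = 3) against 2.45 ± 1.34 CPM (SD, n = 3), a difference of 1.88 log2 units, an SE of 0.46 and an edgeR adjusted p of 0.0636. With limma on log2(FPKM + 1) it passed (1.60, adjusted p from limma of 0.033), a test that called 6.18% of features, 4.68% higher and 1.5% lower. NONMMUT084052.1 (83547703 to 83549648) held 25, 24 and 23 reads against 7, 5 and 14, again with no overlap (1.26 log2 units with an SE of 0.47, edgeR adjusted p of 0.169). The other 3 had too few reads to be tested, NONMMUT084051.1 with 10, 6 and 5 against 2, 2 and 0, NONMMUT084053.1 with 9, 9 and 17 against 1, 3 and 6, and NONMMUT084054.1 with 5, 8 and 9 against 2, 4 and 2.

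NONMMUT084048.1 (83538900 to 83539571) was the most abundant annotated member. It measured 19.2, 95.7 and 50.9 CPM in LPS_ES_PMMA against 4.92, 44.1 and 1.44 CPM in LPS_PMMA. LPS_PMMA 2 lay above LPS_ES_PMMA 1, so the groups overlapped, and the log2 fold change of 1.70 had an SE of 1.07 (edgeR adjusted p of 0.4). Without LPS_PMMA 2 it was 4.10 (edgeR adjusted p of 0.0895). NONMMUT084045.1 spans the same stretch with introns and overlaps NONMMUT084047.1, NONMMUT084048.1 and NONMMUT084049.1, so reads may be divided between them. LPS_ES_PMMA 1 differed from the rest, with 0 reads on NONMMUT084045.1 and 57 on NONMMUT084049.1, where the other 5 libraries held 12 to 18 and 4 to 7. Summed, the 4 held 138, 213 and 172 reads in LPS_ES_PMMA against 30, 139 and 24 in LPS_PMMA, and LPS_PMMA 2 again lay among the LPS_ES_PMMA libraries.

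**Figure D2:**
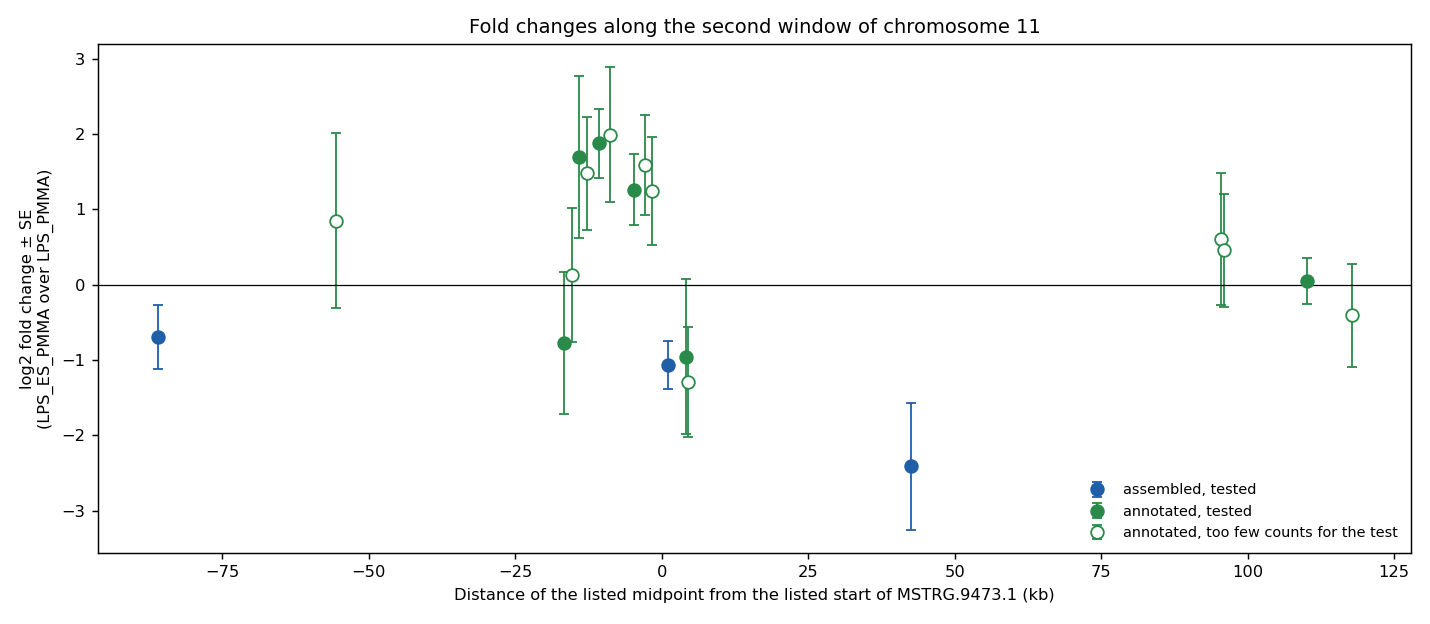
Log2 fold change with its approximate SE for features of the second window against distance in kb from the listed start of MSTRG.9473.1; filled points had enough counts for the test and open points come from the fit without a filter. The 3 assembled features lie below 0, the run from NONMMUT084048.1 to NONMMUT084054.1 lies above 0 at 1.25 to 1.99, and NONMMUT084057.1, with 1 read in LPS_PMMA, is not drawn.

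Members outside this stretch gave other values. NONMMUT011139.2 (83662587 to 83664370), which the table ties to Ccl4, held 26.5 ± 8.98 CPM (SD, n = 3) in LPS_ES_PMMA and 25.6 ± 2.53 CPM (SD, n = 3) in LPS_PMMA. By library these were 18.2, 25.3 and 36.1 CPM against 26.6, 27.6 and 22.8 CPM, so the groups overlapped. MSTRG.9473.1 is the feature with the intron total of Ccl4. Per read of it, NONMMUT011139.2 had 0.493, 0.658 and 0.686 reads in LPS_ES_PMMA against 0.231, 0.29 and 0.389 in LPS_PMMA. The 2 features thus did not keep 1 ratio across libraries. With NONMMUT084061.1, NONMMUT084062.1 and NONMMUT011140.2, the other members that fall on Heatr6 when moved, NONMMUT011139.2 summed to 21.6, 28.9 and 41.1 CPM in LPS_ES_PMMA against 30.0, 30.7 and 27.1 CPM in LPS_PMMA, which overlap. NONMMUT084055.1 held 35, 36 and 0 reads in LPS_PMMA and 19, 5 and 25 in LPS_ES_PMMA (edgeR adjusted p of 0.639), and its groups overlapped because LPS_PMMA 3 held none. It overlaps NONMMUT084056.1, with 5, 10 and 3 reads against 5, 2 and 2, and NONMMUT084057.1 held 0, 1 and 0 reads against 2, 4 and 4. NONMMUT084047.1 held 2, 5 and 3 reads in LPS_ES_PMMA beside 4, 2 and 2, and NONMMUT011127.2, in the gene Taf15 as listed, held 10 reads in all. The 3 rows under 10 reads, NONMMUT141039.1, NONMMUT140567.1 and NONMMUT084058.1, held 5 to 8 reads each and are not described further.

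In TMM-scaled CPM, 5 of the 21 members had separate groups with LPS_ES_PMMA higher, all annotated, and 3 with LPS_ES_PMMA lower, all assembled. Among all 17649 features of at least 10 reads these shares were 13.3% and 10.7%. Of the 10 tested members 2 were apart with LPS_ES_PMMA higher and 3 with it lower, beside 16.2% and 14.6% of all tested features. In the fit over the 17649 features, 13 of the 21 had a log2 fold change above 0, against 54.1% of all, and their median was 0.45. Summed over the 21, the libraries measured 295, 291 and 155 CPM in LPS_PMMA and 152, 238 and 236 CPM in LPS_ES_PMMA, which overlap.

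Compared per length, in the authors' FPKM (reads per length and library size), the Ccl4-like MSTRG.9473.1 was highest in LPS_PMMA at 87.2 ± 14.2 FPKM (SD, n = 3), followed by the Ccl9-like MSTRG.9463.1 at 22.3 ± 5.29 FPKM and the Ccl2-like MSTRG.9414.1 at 15.8 ± 2.85 FPKM. These Ccl9-like and Ccl2-like levels overlapped in part, since the lowest Ccl9-like library (16.3 FPKM) lay below the highest Ccl2-like one (19.0 FPKM). In LPS_ES_PMMA, MSTRG.9473.1 stood at 57.7 ± 4.77 FPKM, MSTRG.9463.1 at 19.3 ± 6.43 FPKM and MSTRG.9414.1 at 1.37 ± 0.749 FPKM. NONMMUT084048.1 had the highest mean there, 63.9 ± 44.9 FPKM, but a spread that covers the level of MSTRG.9473.1. No member matched Ccl5, Ccl7, Ccl8, Ccl11 or Ccl12, and coding genes were not analysed here.

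Column totals in place of TMM moved each of the 10 tested members upward. The TMM factors ran from 0.559 in LPS_PMMA 1 to 1.82 in LPS_ES_PMMA 2, total counts from 1123551 (LPS_ES_PMMA 2) to 3697638 (LPS_PMMA 1), and the median over every tested feature was 0.027 log2 units with TMM, 0.447 with totals implied by FPKM and 0.818 with column totals. The share called was 4.76% with TMM, 3.77% with implied totals (2.68% higher, 1.09% lower) and 4.17% with column totals (3.4% higher, 0.766% lower). MSTRG.9414.1 had -3.51 and -3.19 under the latter 2 scalings and passed under both (edgeR adjusted p of 0.0143 and 0.0265). MSTRG.9473.1 had -0.59 and -0.22, and NONMMUT084050.1 had 2.24 and 2.57 without passing.

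**Figure D3:**
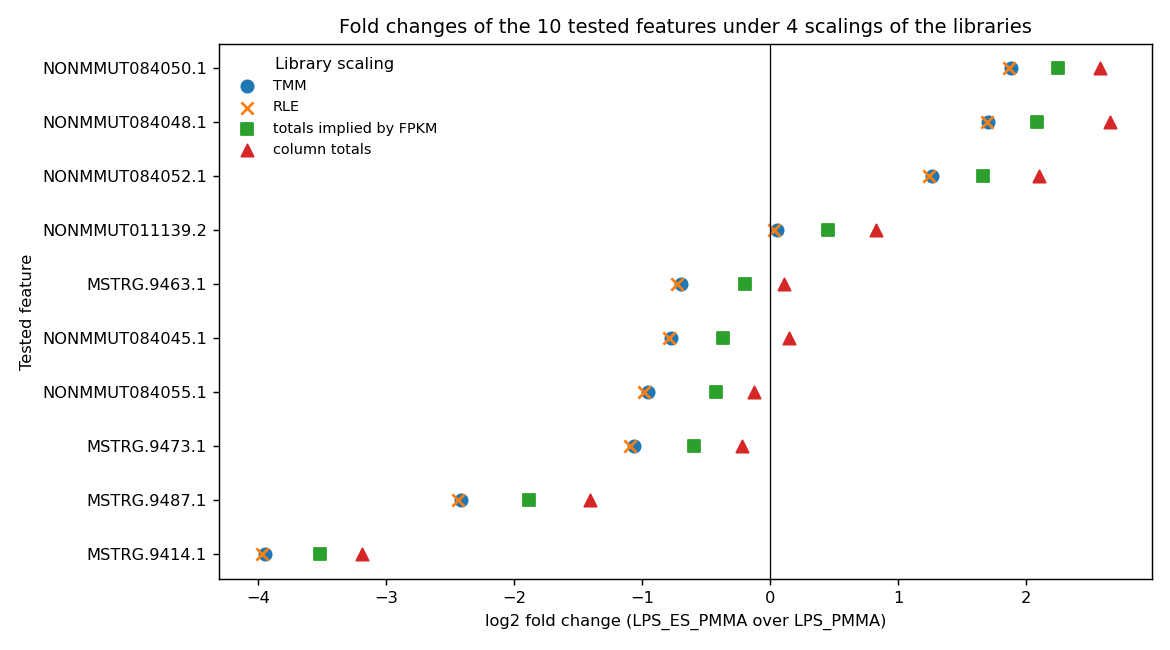
Log2 fold change of the 10 tested features under TMM, RLE, totals implied by FPKM and column totals. MSTRG.9414.1 stays between -3.97 and -3.19, and column totals move MSTRG.9463.1 and NONMMUT084045.1 from below to above 0.

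The patterns most like MSTRG.9414.1 over the 6 libraries were those of NONMMUT123279.1 on chromosome 6 (r = 0.999), MSTRG.20398.1 on chromosome 15 (r = 0.995) and NONMMUT087581.1 on chromosome 12 (r = 0.995), by Pearson's correlation of log2 CPM among 8873 features. MSTRG.9473.1 was most like MSTRG.25125.1 on chromosome 17 (r = 0.997), NONMMUT064221.2 on chromosome 7 (r = 0.996) and NONMMUT151523.1 on chromosome 7 (r = 0.996). These points share libraries and depth, and with 6 points among so many features high values are given as a description. The correlation does not weigh the size of a change. In LPS_ES_PMMA against LPS_PMMA, MSTRG.9414.1 held 2, 3 and 7 reads against 53, 63 and 42. NONMMUT123279.1 held 25, 17 and 30 against 57, 76 and 61, MSTRG.20398.1 22, 16 and 30 against 74, 73 and 75. NONMMUT087581.1 held 124, 65 and 111 against 116, 150 and 151.

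Other genes of the pathway were read through the table's gene column, which uses the listed positions. Whether the reads of these features were counted at those positions was not tested, so their ties to genes share the doubt stated above. Of 27 chemokine genes elsewhere, 5 had a feature, and 0 of the 6 features held enough reads to be tested. Of 24 chemokine receptor genes, 5 had 11 features, of which 4 were tested and 1 fell, beside 2.58% of all tested features called lower. That feature, NONMMUT133763.1 in an intron of Ccr9, the receptor of the gut chemokine Ccl25, held 20, 5 and 16 reads in LPS_ES_PMMA against 44, 50 and 47 in LPS_PMMA (-2.14 log2 units with an SE of 0.34, edgeR adjusted p of 0.018). Its groups did not overlap in CPM, at 4.26 ± 1.52 (SD, n = 3) against 19.4 ± 2.34 (SD, n = 3), while ENSMUST00000214413, antisense to the same gene, had higher means with enoxaparin and did not pass (0.85 log2 units with an SE of 0.37, edgeR adjusted p of 0.236). Of 33 genes of TLR4 and NF-kB signalling, 10 had 21 features, of which 3 were tested, 1 fell and 0 rose, beside the same 2.58% lower and 2.18% higher. NONMMUT105607.1 beside Nfkb2, an NF-kB subunit gene, fell from 30, 41 and 41 reads in LPS_PMMA to 12, 5 and 6 (-2.58 log2 units with an SE of 0.32, edgeR adjusted p of 0.00954). NONMMUT000253.2, antisense to Ly96, the TLR4 co-receptor, stood at 0.29 log2 units (edgeR adjusted p of 0.733), and NONMMUT153209.1, antisense in Cxcr5, the receptor of Cxcl13, at -0.38 (edgeR adjusted p of 0.661). The median of the tested features was -0.43 for receptors and 0.29 for signalling genes, beside 0.027 for all. Of the 2 calls in these lists, 0 were left with column totals, without LPS_ES_PMMA 1, without LPS_ES_PMMA 3 or without LPS_PMMA 2.

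Cell identity could be read only in part from lncRNA rows. Features tied to 2 of 11 macrophage markers held 66 to 166 reads per library, and MSTRG.25685.1, antisense to Adgre1, the gene of F4/80, gave most of them. It measured 39.0 ± 5.69 CPM (SD, n = 3) in LPS_ES_PMMA and 57.3 ± 6.29 CPM (SD, n = 3) in LPS_PMMA and did not pass (-0.55 log2 units with an SE of 0.25, edgeR adjusted p of 0.238). Features tied to T cell markers (2 of 5 genes) summed to 137, 37 and 93 reads in LPS_ES_PMMA against 22, 31 and 26 in LPS_PMMA. Of these 3 features 1 was tested and it rose, beside 2.18% of all tested features called higher. That feature was NONMMUT057375.2 beside Cd8a (1.41 log2 units with an SE of 0.31, edgeR adjusted p of 0.0442). The feature antisense to the epithelial gene Krt8 (1 of 4 genes) held 220, 115 and 198 reads in LPS_ES_PMMA against 63, 86 and 95 in LPS_PMMA, and did not pass (0.85 log2 units with an SE of 0.23, edgeR adjusted p of 0.088). Those of fibroblasts (1 of 5 genes) held 2 to 7 reads per library, and no feature was tied to endothelial, B cell or neutrophil markers. These ties rest on listed positions, the read counts of the T cell and Krt8 features did not overlap between the groups, and their part in the results above was not tested.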

How the data were processed

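RNA of 6 RAW264.7 libraries was measured, 3 per group by title. The authors deposited 1 table of lncRNA features with whole-number counts, FPKM values, group mean FPKM, log2 fold changes and p-values and q-values, per the file headers. For the aligner, the counter and the strand setting, the sources used here give nothing, and the submitters' processing notes list mm10 as build.

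Counts of the whole table were filtered with filterByExpr (minimum count 10, minimum total 15), scaled by TMM and compared with the quasi-likelihood F-test of edgeR 4.0.16 in R 4.3.3, with Benjamini-Hochberg adjustment over 8873 features and a threshold of 0.05. For members below the filter, values come from an unfiltered fit. The SE was approximated as the absolute log2 change divided by root F. The common biological coefficient of variation was 0.415. Chi-square per degree of freedom between libraries of a group was 15.4 to 45.5, so no pair agreed within sampling noise. Alternatives used limma 3.58.1 and DESeq2 1.42.0.

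Named members are those called, the 6 most abundant per window, those tied to a chemokine by the table, and the 3 largest changes per direction among tested members, and list features that were called or among the 2 most abundant. Others are named to account for all 21. Ties used GENCODE M21. The offset is the median of start and end differences in the most frequent 1000-base bin, among assembled and coding transcripts whose 2 ends differ alike within 100 bases. Of 21 assembled transcripts, 4 fell in that bin and 1 in the next. MSTRG.9414.1, MSTRG.9473.1 and MSTRG.9487.1 are among these 4, so their own distances helped to set the offset. Members overlapping as listed were summed without regard to strand. Members and lists were chosen with earlier results of these data known.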

Additional observations from a re-analysis of the deposited data

How the results depend on the processing

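The call of MSTRG.9414.1 held in 13 of 16 alternatives, with adjusted p over all of them from 4.71e-07 (DESeq2) to 0.0772. No member passed with a replicate block (0 calls, MSTRG.9414.1 at -3.94, adjusted p from edgeR = 0.0772), nor without LPS_ES_PMMA 2 or LPS_PMMA 2. Leaving out 1 library left 0 to 1 members past the threshold, and limma on log2(FPKM + 1) called 2, MSTRG.9414.1 and NONMMUT084050.1 (1.60, adjusted p from limma = 0.033). Same-numbered libraries deviated with correlations of -0.0172, -0.0292 and -0.086, which show no sign of pairing. With so few libraries per group they cannot exclude it. Over all features, the fit with the block called 41 and the main fit 422. Over all features 174 were called without a filter, 151 with a minimum total of 10 counts and 50 to 136 with 1 library left out.

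Signs changed for members that did not pass. With column totals MSTRG.9463.1 had 0.109 and NONMMUT084045.1 0.147. NONMMUT084055.1 had 1.07 and 0.161 in limma on log2(FPKM + 0.1) and log2(FPKM + 1). NONMMUT011139.2 ran from -0.275 (without LPS_ES_PMMA 3) to 0.267 with 1 library left out, and had -0.042 without LPS_PMMA 3. The log2 ratio of summed member CPM was -0.245, and 0.278 without the most abundant member of each window. Members overlapping a CC chemokine gene numbered 3 as listed and 7 when moved by the offset. Of features tied to chemokine, receptor and NF-kB genes elsewhere, 2 were called, 0 with column totals or a replicate block, 1 with totals implied by FPKM or limma on log2(FPKM + 0.1), and 0 to 1 with a library left out. Where no construction shows it, the cause was not tested. With 12 reads of MSTRG.9414.1 in LPS_ES_PMMA, counting error limits its fold change. The table gives no strand per feature, so the planned sum of members overlapping on 1 strand was made without strand, and gave 1.34 (SE 0.71) for the 4 around NONMMUT084048.1 and -1.03 for NONMMUT084055.1 with NONMMUT084056.1.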
